A study of Homo sapiens with 27 samples.

Results

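The plastins and the other actin-bundling and actin-to-membrane linker genes PLS1, PLS3, LCP1, FSCN1, ESPN, VIL1, EZR and MSN were described in RNA-Seq data from estrogen-deprived invasive lobular carcinoma (ILC) cells. The 8 genes are all the members, of 60619 genes in the deposited table of counts, and each was present as 1 row matched by its Ensembl ID to its GENCODE symbol. The family was chosen by measured values of these same samples, namely the high counts of PLS3 in the MM134 long-term estrogen-deprived (LTED) cells, so the PLS3 difference between those cells and their parental line is a description and was given no test. The other 7 genes were added for what their proteins do, with earlier results of these data known.

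The study asked what changes when ILC cells learn to grow without estrogen, a culture model of aromatase inhibitor resistance. Both parental lines are estrogen receptor-positive human ILC lines. MM134 (MDA-MB-134VI) was used as parental cells and as the LTED variants A, B, D and E, and SUM44 was used as the original SUM44PE culture, as SUM44F, which is SUM44PE adapted to a serum-containing medium, and as the LTED variants A and B, which were raised from SUM44F. The LTED variants are cells that grew out over months in charcoal-stripped serum and were kept in it, whereas the parental cells of every group were deprived of hormone for 3 days only before collection. A difference between LTED and parental cells therefore compares long with short deprivation, and a variant is 1 outgrowth. Each of the 9 groups had 3 libraries, from triplicate wells, so the p-values measure the spread between these wells, which may be technical.

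The 27 libraries held 28583554 to 134882175 estimated counts, with a median of 44018412. In SUM44 LTED-A, the counts of replicates 2 and 3 differed by less than sampling noise, so the pair was counted as 1 sample, which left 2 samples in that group and 26 in all. All 7 luminal epithelial markers (KRT8, KRT18, KRT19, EPCAM, ESR1, GATA3 and FOXA1) were present in each group, with a summed level of 4378 to 8458 normalised CPM (counts scaled to library size). Markers of fibroblasts set 3 libraries apart. In SUM44F replicate 1 the 10 fibroblast markers summed to 373 CPM and each of them was higher than in the other SUM44F libraries, where the sums were 9.69 and 8.64 CPM. Lumican (LUM), a collagen-binding matrix protein of fibroblasts, stood at 57.2 CPM in SUM44F replicate 1, at 2.79 CPM in MM134 parental replicate 3 and at 2.27 CPM in MM134 LTED-D replicate 2, and had no more than 3 counts in the remaining 23 samples. Member results that changed call or sign without these 3 libraries are given both ways, as are some others. The lists of other genes were not tested without them. Fewer cells of a kind and less RNA per cell cannot be told apart in such bulk samples.

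**Figure D1:**
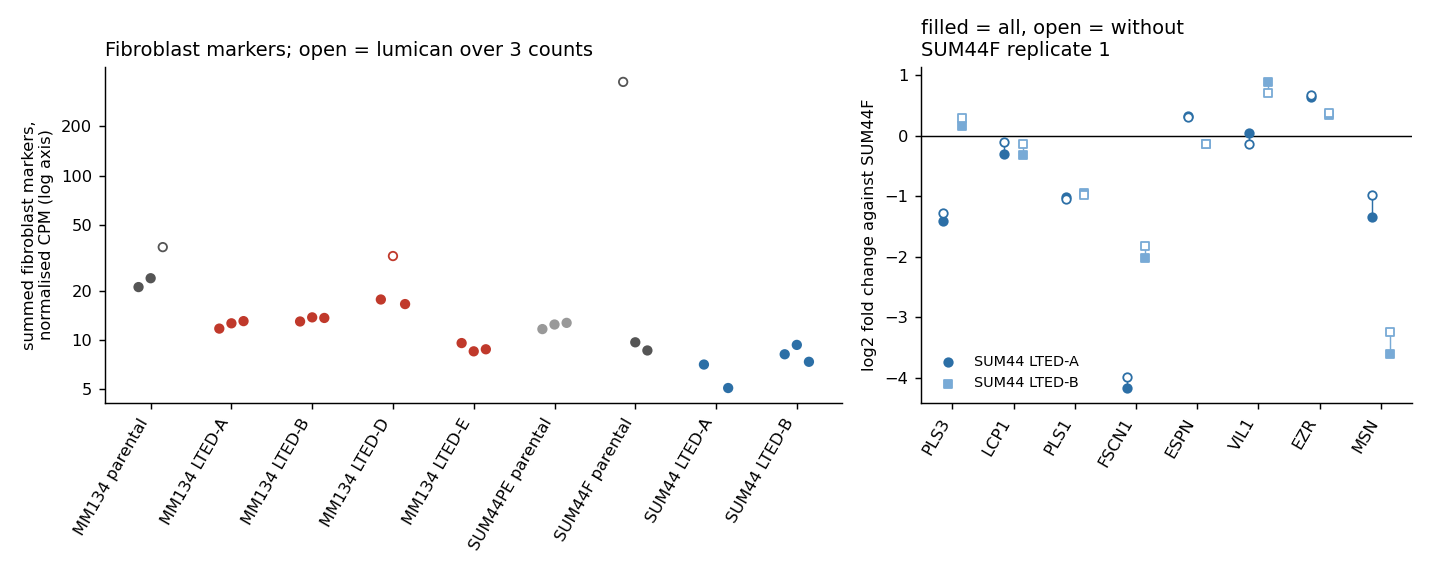
Left, the summed level of 10 fibroblast markers in each library (normalised CPM, log axis), with open points for the 3 libraries that held more than 3 lumican counts. SUM44F replicate 1 lies at 373 CPM, while the 23 samples drawn as filled points lie between 5.10 and 23.8 CPM. Right, the log2 fold change of each gene in the SUM44 LTED variants against SUM44F with all libraries (filled) and without SUM44F replicate 1 (open), where MSN moves the most in both variants.

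Cells shape their surface with actin filaments. Plastins cross-link filaments into tight parallel bundles: PLS1 is the form of intestinal and other brush-border microvilli, LCP1 that of leukocytes, also found in many cancers, and PLS3 that of most other solid tissues. Fascin (FSCN1) bundles the filaments of filopodia, espin (ESPN) those of microvilli and stereocilia, and villin (VIL1) those of microvilli. Villin can also sever filaments when calcium is high. Ezrin (EZR) and moesin (MSN), with radixin (RDX), form the ERM family, which ties filaments to membrane proteins such as CD44.

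On hg38 with GENCODE release 44, PLS3 lies on chromosome X at 115561174-115650861 and MSN on the same chromosome at 65588377-65741931, both on the plus strand. LCP1 lies on chromosome 13 at 46125920-46211871 (minus strand), PLS1 on chromosome 3 at 142596393-142713664 (plus), FSCN1 on chromosome 7 at 5592816-5606655 (plus), ESPN on chromosome 1 at 6424776-6461367 (plus), VIL1 on chromosome 2 at 218419121-218453295 (plus) and EZR on chromosome 6 at 158765741-158819368 (minus). The RefSeq promoter table (GRCh38.p14) held 9 windows for 5 of the 8 genes, each running from 250 bases before to 50 bases after an annotated start, and none for FSCN1, ESPN and VIL1. The windows of the genes with the most distinct patterns below are printed 5′ to 3′ on the gene's own strand, with CpG dinucleotides in capitals: PLS3 and MSN, which went in opposite directions in MM134 LTED cells, have 2 annotated starts each, EZR is the most abundant member and rose, and LCP1 is a plastin gene that fell while PLS3 was high.
PLS3 start 1 (chrX:115560924-115561223, plus strand): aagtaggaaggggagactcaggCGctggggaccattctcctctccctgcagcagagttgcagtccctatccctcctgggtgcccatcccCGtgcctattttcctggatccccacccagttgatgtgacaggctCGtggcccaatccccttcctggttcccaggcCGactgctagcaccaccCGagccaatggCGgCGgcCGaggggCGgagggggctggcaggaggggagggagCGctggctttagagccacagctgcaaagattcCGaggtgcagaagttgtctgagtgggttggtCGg
PLS3 start 2 (chrX:115593301-115593600, plus strand): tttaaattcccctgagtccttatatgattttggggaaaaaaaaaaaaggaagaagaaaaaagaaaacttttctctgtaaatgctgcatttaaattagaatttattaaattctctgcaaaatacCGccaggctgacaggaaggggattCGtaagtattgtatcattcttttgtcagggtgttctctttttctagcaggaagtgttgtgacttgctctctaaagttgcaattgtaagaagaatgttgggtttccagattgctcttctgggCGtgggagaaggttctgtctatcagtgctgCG
MSN start 1 (chrX:65588127-65588426, plus strand): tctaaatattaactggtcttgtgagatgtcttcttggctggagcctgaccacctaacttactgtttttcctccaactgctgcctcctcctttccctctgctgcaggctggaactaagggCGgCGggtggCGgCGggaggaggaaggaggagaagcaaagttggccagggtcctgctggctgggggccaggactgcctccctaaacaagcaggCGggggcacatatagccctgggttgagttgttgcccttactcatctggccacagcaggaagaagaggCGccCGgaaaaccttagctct
MSN start 2 (chrX:65667404-65667703, plus strand): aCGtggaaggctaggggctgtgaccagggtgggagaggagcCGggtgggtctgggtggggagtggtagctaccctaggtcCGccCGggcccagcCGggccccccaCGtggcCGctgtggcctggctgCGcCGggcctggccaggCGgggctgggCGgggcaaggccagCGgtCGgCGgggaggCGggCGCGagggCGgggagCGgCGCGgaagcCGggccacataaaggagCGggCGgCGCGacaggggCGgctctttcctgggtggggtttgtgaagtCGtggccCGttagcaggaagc
EZR (chr6:158818186-158818485, minus strand): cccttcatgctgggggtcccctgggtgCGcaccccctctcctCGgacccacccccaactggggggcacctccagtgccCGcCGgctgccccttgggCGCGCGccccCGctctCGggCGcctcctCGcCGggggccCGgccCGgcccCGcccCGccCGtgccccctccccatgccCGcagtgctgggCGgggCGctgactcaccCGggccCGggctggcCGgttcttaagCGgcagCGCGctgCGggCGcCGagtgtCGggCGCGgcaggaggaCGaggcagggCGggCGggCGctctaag
LCP1 (chr13:46182128-46182427, minus strand): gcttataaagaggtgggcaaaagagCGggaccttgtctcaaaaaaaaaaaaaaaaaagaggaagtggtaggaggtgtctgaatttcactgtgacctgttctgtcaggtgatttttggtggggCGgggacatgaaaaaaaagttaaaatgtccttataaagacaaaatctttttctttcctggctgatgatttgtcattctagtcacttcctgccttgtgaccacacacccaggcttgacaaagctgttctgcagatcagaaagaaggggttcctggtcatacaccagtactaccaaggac

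Across all 35116 promoter windows the median number of CpG dinucleotides was 14, with quartiles of 4 and 28. The EZR window held 36 and MSN start 2 held 29, more than in 87.3% and 75.8% of all windows. PLS3 start 1 held 12, MSN start 1 held 7, PLS3 start 2 held 4 and the LCP1 window held 2. The letters GGGCGG (a GC box), searched on both strands, were found 5 times each in the EZR and MSN start 2 windows. They were found 1 time each at PLS3 start 1, MSN start 1, LCP1 and PLS1 start 1 (not printed), and 45.0% of all windows held them. TATAAA was found 2 times in the LCP1 window and in none of the other windows printed, against 11.5% of all windows. The palindrome of the estrogen response element was in none of the 9 windows and in 0.0570% of all. Its arm GGTCA, also part of the palindrome, was found 3 times in the LCP1 window and 1 time in each MSN window and each PLS1 window. The PLS1 windows are not printed, and 37.4% of all windows held the arm. The deposited values are per gene, so they do not say from which start a transcript came.

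PLS3, the plastin of most solid tissues, went from almost no counts in MM134 parental cells to the most abundant plastin in 3 of the 4 LTED variants. Its normalised level in the parental libraries was 0.0572, 0.0270 and 0.0972 CPM, from 2, 1 and 3 counts. It stood at 163, 165 and 157 CPM in LTED-A, at 123, 125 and 132 CPM in LTED-B, and at 123, 126 and 122 CPM in LTED-D. In LTED-E it was 32.8, 32.9 and 32.1 CPM. No LTED library came near a parental one, and LTED-E lay below the other variants, while LTED-B and LTED-D overlapped. With 6 counts in all in the parental group, the ratio of pooled levels was 2778 for LTED-A (95% counting interval 1276 to 7572), 2172 for LTED-B (997 to 5918), 2116 for LTED-D (972 to 5768) and 559 for LTED-E (256 to 1523). These intervals are exact, cover counting error only, leave out the spread between wells and come from reads without molecular identifiers. They describe PLS3 and are no test, since its high counts here led to the choice of the family. Against a floor of 3 counts in each parental library, 0.0880 CPM on average, the ratios were 1838, 1441, 1404 and 371. The 4 variants are set against the same 3 parental libraries.

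Between the highest and the lowest MM134 variant the fitted level of PLS3 differed by 2.29 on the log2 scale, which is also a description, since these libraries led to its choice. Of the other 7 genes, 4 (ESPN, VIL1, EZR and MSN) were called among the variants, by a fold change over 1.5 and a Benjamini-Hochberg adjusted p under 0.001 in edgeR's quasi-likelihood F-test on the 3 contrasts, against 20.3% of all 26061 genes tested.

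**Figure D2:**
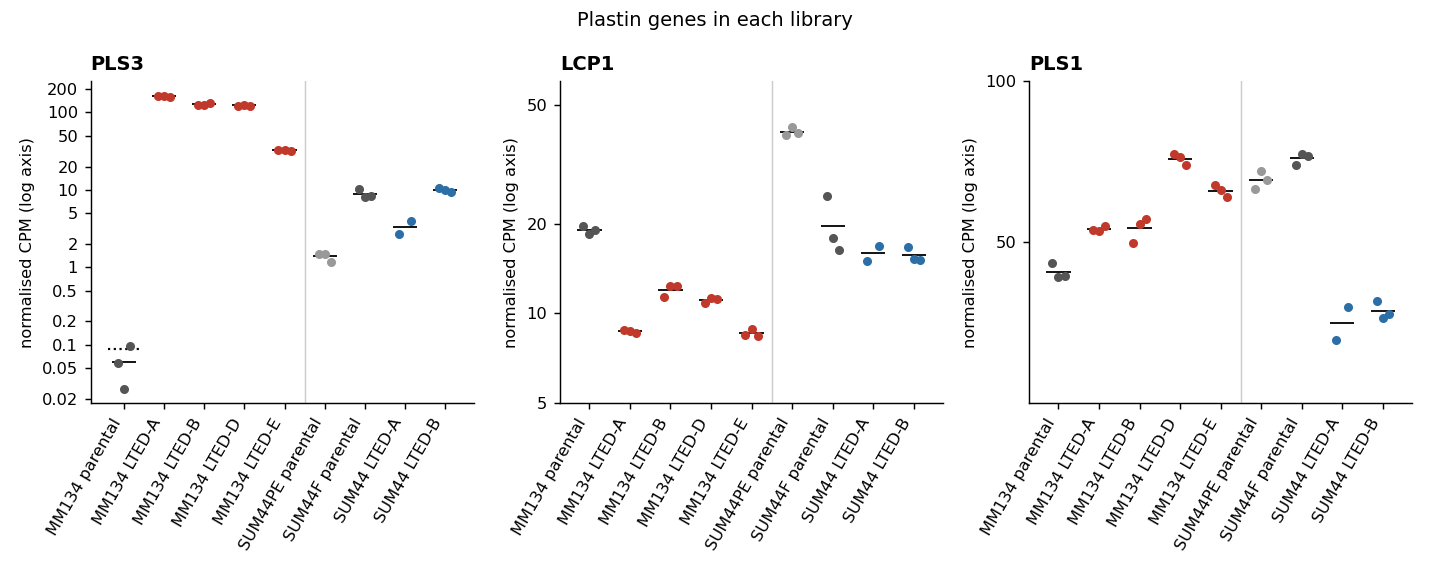
Normalised CPM (log axis) of PLS3, LCP1 and PLS1 in each library of the 9 groups, with the group mean as a bar; the dotted line in the first panel is the 3-count floor of MM134 parental cells. PLS3 in MM134 parental cells lies at 0.0270 to 0.0972 CPM and in the LTED variants at 32.1 to 165 CPM, while LCP1 is lower in each MM134 LTED variant than in the parental cells and PLS1 is lower in both SUM44 LTED variants than in SUM44F.

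In the SUM44 LTED variants PLS3 did not rise by the test. Its level was 10.4, 7.97 and 8.33 CPM in SUM44F, 2.67 and 3.93 CPM in LTED-A and 10.7, 9.91 and 9.39 CPM in LTED-B. Both LTED-A samples lay below every SUM44F library, and LTED-B overlapped SUM44F. LTED-A was lower by a log2 fold change of -1.41 (SE 0.17, adjusted p = 8.72e-06), and LTED-B differed by 0.17 (SE 0.14, adjusted p = 0.358, 95% interval -0.11 to 0.45), which did not pass the test. Between the variants, LTED-A was lower than LTED-B by -1.57 on the log2 scale (SE 0.17, adjusted p = 5.64e-06). SUM44PE, from which SUM44F was made, had 1.46, 1.5 and 1.18 CPM, below each SUM44F library, with a log2 difference of -2.69 (SE 0.16, adjusted p = 9.84e-10). SUM44F replicate 1, the library with the fibroblast markers, was the highest of its group. Without it, the LTED-A difference was -1.28 (adjusted p = 7.94e-06), that of LTED-B was 0.29 (adjusted p = 0.132) and that of SUM44PE was -2.56 (adjusted p = 2.65e-10).

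PLS3-AS1, an antisense gene that overlaps the start of PLS3, stayed low throughout. Its mean level was 0.279 CPM in MM134 parental cells and 1.03, 0.510, 0.551 and 0.488 CPM in LTED-A, B, D and E. It was called in LTED-A alone of the 4 (log2 fold change 1.87, SE 0.30, adjusted p = 2.79e-06), and the adjusted p-values in B, D and E were 0.0388, 0.0189 and 0.0543. The kit kept the strand, but the strand setting of the counting was not given in the sources used here, so reads of the overlap may have been assigned to either gene. The 40 genes next to PLS3 on chromosome X, 20 on each side with a mean of at least 1 CPM, had median log2 fold changes of -0.12 to -0.07 in the 4 variants. Of them, 14, 14, 17 and 11 were called in either direction in A, B, D and E, against 20.7%, 16.3%, 18.0% and 19.4% of all genes. The shares of all genes were not limited to genes of that level.

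LCP1, the leukocyte plastin, fell in each MM134 LTED variant. The parental libraries held 19.6, 18.5 and 19.1 CPM. LTED-A held 8.79, 8.75 and 8.61 CPM, LTED-B held 11.3, 12.4 and 12.3 CPM, LTED-D held 10.8, 11.3 and 11.2 CPM and LTED-E held 8.50, 8.90 and 8.42 CPM. None of these libraries reached the lowest parental one. The log2 fold changes were -1.13, -0.66, -0.77 and -1.14 in that order (SE 0.06 each, adjusted p between 1.68e-17 and 1.43e-11). The 10 leukocyte markers summed to 3.73 to 3.89 CPM in parental cells and to 34.8 to 36.0, 11.2 to 12.4, 16.5 to 18.3 and 28.5 to 29.5 CPM in the 4 variants, with CD3E at or under the 3-count floor in each of these groups, and PTPRC, the pan-leukocyte CD45 gene, at a mean of 0.177 CPM in parental cells and 0.152, 0.129, 0.256 and 0.137 CPM in the variants. Over all genes, 20.7%, 16.3%, 18.0% and 19.4% were called in either direction in LTED-A, B, D and E. Of the 5 leukocyte markers tested, 3, 3, 3 and 4 rose, among them CORO1A, ITGAM and LYZ in each variant, and LAPTM5 fell in LTED-A. The part of such genes in the LCP1 values was not tested.

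In SUM44, LCP1 was highest in SUM44PE, at 39.5, 42.0 and 40.3 CPM, and stood at 24.8, 17.9 and 16.3 CPM in SUM44F. The difference was 1.04 on the log2 scale (SE 0.13, adjusted p = 3.82e-05) and 1.24 without SUM44F replicate 1 (adjusted p = 5.25e-09). That library also had the highest leukocyte marker sum of its group, 58.7 CPM against 48.6 and 41.3 CPM, with 120 counts of PTPRC (2.60 CPM, and as low as 0.332 CPM in its group), and the part of this in its LCP1 level was not tested. The LTED variants held 15 to 16.9 CPM in A and 15.1 to 16.7 CPM in B and overlapped SUM44F. Their log2 fold changes of -0.30 and -0.33 did not pass (adjusted p = 0.157 and 0.0695), and were -0.10 and -0.13 without SUM44F replicate 1.

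PLS1, the microvillar plastin, was lower in both SUM44 LTED variants. SUM44F held 69.8, 73.0 and 72.4 CPM, LTED-A held 32.9 and 37.8 CPM, and LTED-B held 38.8, 36.1 and 36.6 CPM. Every LTED sample lay far below the lowest SUM44F library. LTED-A was lower by -1.02 on the log2 scale (SE 0.09, adjusted p = 2.50e-07). LTED-B was lower by -0.95 (SE 0.08, adjusted p = 9.94e-08). Without SUM44F replicate 1 these values were -1.04 and -0.97. The variants did not differ by the test (log2 difference -0.07, SE 0.09, 95% interval -0.24 to 0.10, adjusted p = 0.640).

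In MM134, PLS1 was higher in the LTED cells, by an amount that passed the fold threshold in LTED-D only. The parental libraries held 45.7, 43.1 and 43.2 CPM, and LTED-D held 73.0, 72.2 and 69.7 CPM, with a log2 fold change of 0.72 (SE 0.04, adjusted p = 2.62e-16). LTED-A (52.5 to 53.6 CPM), LTED-B (49.8 to 55.3 CPM) and LTED-E (60.8 to 64.0 CPM) also lay above every parental library. Their log2 fold changes of 0.26, 0.27 and 0.52 had adjusted p-values from 6.13e-13 to 7.17e-07 but stayed under a fold of 1.5. The change in MM134 minus that in SUM44 was 1.42 on the log2 scale (SE 0.06, adjusted p = 2.35e-18).

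Per kilobase of the canonical transcript, the scale on which genes can be compared, PLS1 was the main plastin of MM134 parental cells, with 69.4% ± 0.375 of the plastin level (SD, n = 3), LCP1 made up 30.5% ± 0.316 and PLS3 0.107% ± 0.0633. PLS3 made up 74.6% ± 0.612 in LTED-A, 68.6% ± 0.809 in LTED-B, 62.6% ± 0.392 in LTED-D and 34.0% ± 0.285 in LTED-E, where PLS1 was the larger share with 57.9% ± 0.457. The summed plastin level was 17.1 CPM per kb in parental cells and 65.9, 56.2, 59.96 and 29.2 CPM per kb in the variants. In SUM44 the sum was 29.2 in SUM44PE, 27.5 in SUM44F, 14.9 in LTED-A and 17.4 CPM per kb in LTED-B, and PLS1 was the largest share in each of these groups, from 57.8% to 70.7%. The summed plastin level was lower in both SUM44 LTED variants than in SUM44F. The higher sums in the MM134 LTED variants include PLS3, whose high counts there led to the choice of the family, so they are a description. Without PLS3, PLS1 went from 11.9 CPM per kb in parental cells to 14.3, 14.3, 19.4 and 16.9 in LTED-A, B, D and E. LCP1 went from 5.23 to 2.39, 3.30, 3.05 and 2.36 CPM per kb.

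**Figure D3:**
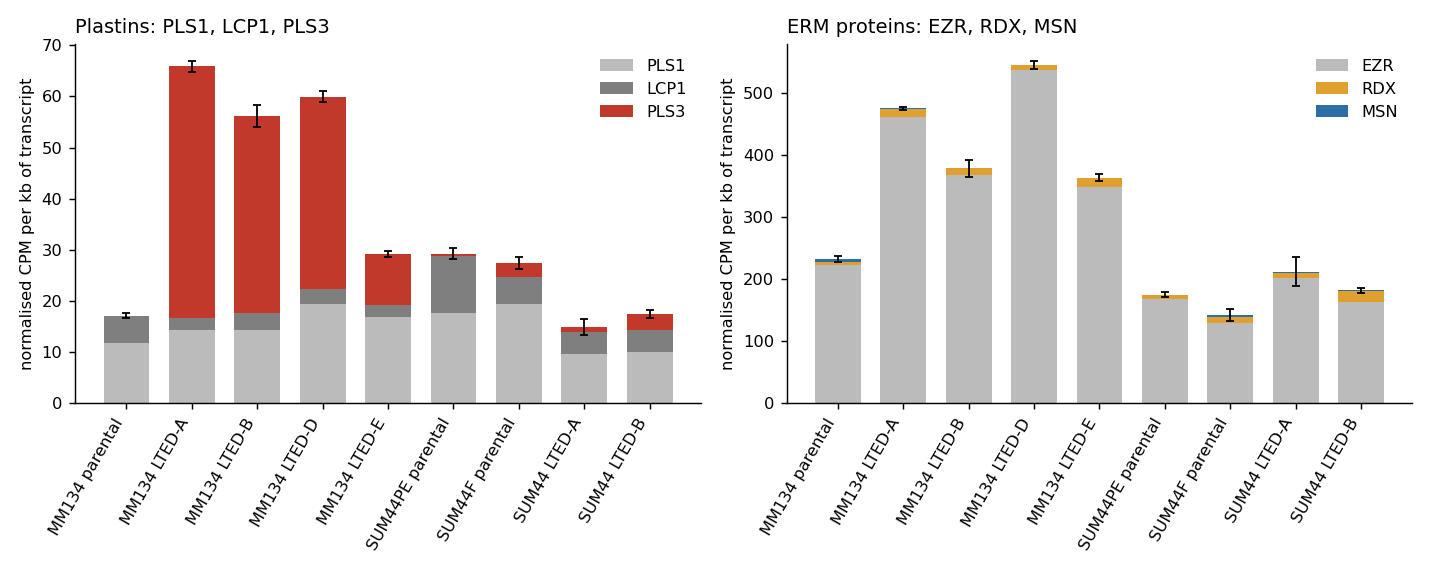
Stacked bars of the mean level per kilobase of canonical transcript (normalised CPM per kb) of the 3 plastin genes (left) and the 3 ERM genes (right) in the 9 groups, with error bars for the SD of the sum over 2 or 3 samples. The plastin sum is 17.1 in MM134 parental cells and 29.2 to 65.9 in the LTED variants, while EZR makes up 89.9% to 98.4% of the ERM sum in each group.

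FSCN1, the filopodial bundler fascin, was lower in all 6 LTED variants. In MM134 the parental libraries held 2.17, 2.59 and 2.53 CPM, and the LTED libraries held 0.491 to 0.930 CPM in A, 0.520 to 0.647 CPM in B, 0.814 to 1.13 CPM in D and 0.424 to 0.583 CPM in E, from 18 to 50 counts each. No LTED library overlapped the parental ones. The log2 fold changes were -1.86, -2.07, -1.29 and -2.30 (SE 0.20 to 0.21, adjusted p from 8.40e-11 to 2.14e-06). Among the variants the largest difference of 1.02 did not pass (adjusted p = 0.0025), and it passed without LTED-A replicate 1 or 3 (adjusted p = 8.37e-04 and 6.74e-04).

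FSCN1 also fell in both SUM44 variants. SUM44F held 14.3, 10.9 and 9.37 CPM, LTED-A held 0.568 and 0.684 CPM, and LTED-B held 2.08, 3.11 and 3.28 CPM. All LTED samples lay below SUM44F, and LTED-A lay below LTED-B. LTED-A fell by -4.17 on the log2 scale (SE 0.26, adjusted p = 6.00e-08), LTED-B by -2.01 (SE 0.19, adjusted p = 2.62e-06), and A was lower than B by -2.15 (SE 0.25, adjusted p = 3.21e-05). That last call was lost with either LTED-A sample left out, at similar differences of -2.03 and -2.33 (adjusted p = 0.00344 and 0.00211), where the lone sample is assumed to vary like the other groups. Without SUM44F replicate 1 the falls were -3.98 and -1.83. SUM44PE held 6.10, 7.22 and 7.41 CPM, below SUM44F, and that difference of -0.74 did not pass (SE 0.17, adjusted p = 0.00539). DESeq2 called it (-0.74, adjusted p = 5.59e-04), and in edgeR without SUM44F replicate 1 it was -0.55 (adjusted p = 0.0156).

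ESPN, the espin of microvilli and stereocilia, fell in each MM134 LTED variant and in neither SUM44 variant. MM134 parental libraries held 14.8, 16.7 and 14.4 CPM. LTED-A held 4.19, 4.22 and 4.87 CPM, LTED-B held 8.03, 7.94 and 8.23 CPM, LTED-D held 7.46, 7.27 and 7.87 CPM and LTED-E held 1.90, 1.55 and 2.06 CPM. All of these were below the parental range, and LTED-E was the lowest of the variants. The log2 fold changes were -1.80, -0.92, -1.01 and -3.05 (SE 0.08 to 0.10, adjusted p from 1.23e-22 to 3.29e-11), and the variants differed among themselves by up to 2.13 (adjusted p = 7.11e-18).

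ESPN in SUM44F was 16.1, 18.2 and 14.5 CPM, in LTED-A 23.2 and 17.5 CPM and in LTED-B 14.2, 14.8 and 15.4 CPM. These ranges overlapped, and the log2 fold changes of 0.32 and -0.13 did not pass (adjusted p = 0.0604 and 0.357, 95% intervals 0.07 to 0.57 and -0.36 to 0.09). SUM44PE held 22.8, 23.7 and 23.3 CPM, above each SUM44F library, by a log2 difference of 0.51 that stayed under a fold of 1.5 and passed it without SUM44F replicate 2 (0.59, adjusted p = 6.60e-04). The test of the difference between the lines gave -1.79 (SE 0.11, adjusted p = 2.25e-14). The pseudogene ESPNP resembles ESPN and may share reads with it. Its mean level was 1.07 CPM in MM134 parental cells and 0.372, 0.518, 0.851 and 0.238 CPM in LTED-A, B, D and E, so it also fell, in 3 of the 4 variants by the test (log2 fold changes of -1.53, -1.05 and -2.16 in A, B and E), and the ESPN values carry that uncertainty.

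VIL1, the villin of brush borders, rose in MM134 LTED-D, with 10.7, 11 and 11.8 CPM against 3.80, 3.29 and 3.11 CPM in the parental libraries (log2 fold change 1.72, SE 0.12, adjusted p = 4.41e-14). In LTED-A (2.80 to 3.39 CPM), LTED-B (3.34 to 4.42 CPM) and LTED-E (3.33 to 4.4 CPM) it overlapped the parental range, with log2 fold changes of -0.17, 0.23 and 0.13 (adjusted p = 0.255, 0.133 and 0.413). LTED-D stood apart from the other variants, among which the fitted level differed by up to 1.89 (adjusted p = 5.93e-16). In SUM44 the level was low, at 0.716 to 1.28 CPM in SUM44F, 0.890 and 1.21 CPM in LTED-A and 1.60 to 2.16 CPM in LTED-B. The log2 fold change in LTED-B of 0.89 did not pass (SE 0.24, adjusted p = 0.00606), although the LTED-B libraries lay above those of SUM44F.

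**Figure D4:**
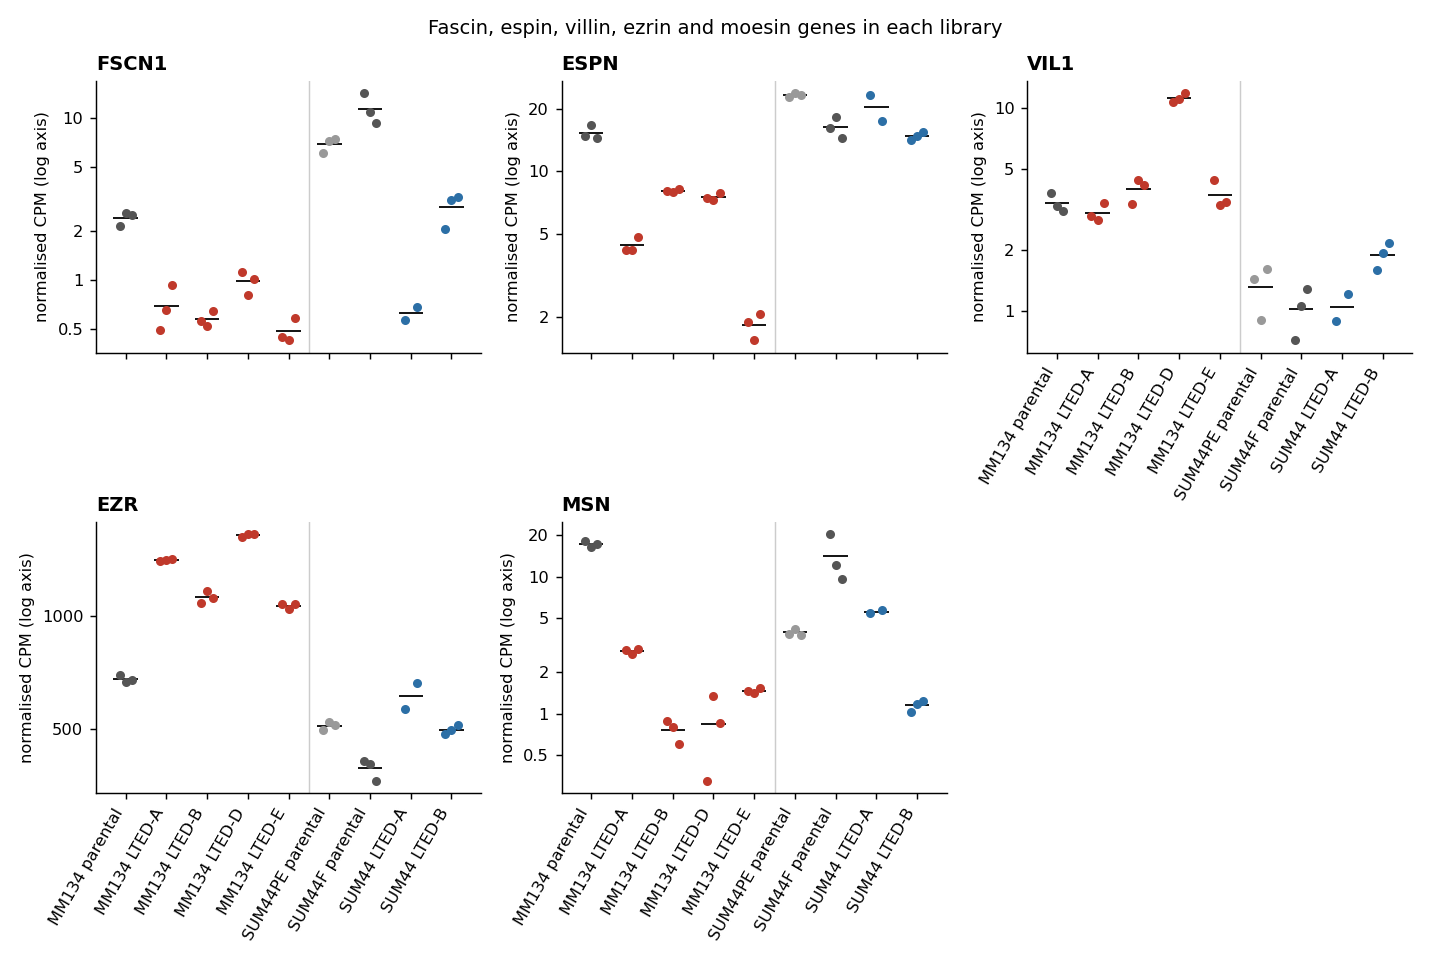
Normalised CPM (log axes) of FSCN1, ESPN, VIL1, EZR and MSN in each library, with group means as bars. The libraries of all 6 LTED variants lie below their parental cells (SUM44F for SUM44) for FSCN1 and MSN and above them for EZR. SUM44PE overlaps SUM44 LTED-B for EZR and lies below SUM44 LTED-A for MSN. For ESPN the LTED libraries lie below the parental ones in MM134 and overlap SUM44F in SUM44. VIL1 is higher in MM134 LTED-D, at 10.7 to 11.8 CPM.

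EZR, the membrane-to-actin linker ezrin, had the highest level per kilobase of the 8 genes in every group, and it rose in each MM134 LTED variant. The parental libraries held 695, 669 and 677 CPM. LTED-A held 1402, 1410 and 1419 CPM, LTED-B held 1080, 1164 and 1120 CPM, LTED-D held 1619, 1652 and 1646 CPM and LTED-E held 1073, 1046 and 1074 CPM. Every LTED library exceeded every parental one. The log2 fold changes were 1.05, 0.72, 1.28 and 0.66 (SE 0.03 each, adjusted p from 1.02e-26 to 2.20e-19).

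In SUM44, EZR held 412, 406 and 365 CPM in SUM44F, 567 and 663 CPM in LTED-A and 487, 498 and 515 CPM in LTED-B. All LTED samples lay above every SUM44F library. LTED-A passed the test with a log2 fold change of 0.64 (SE 0.10, adjusted p = 1.51e-04) and LTED-B did not, with 0.34 (SE 0.09, adjusted p = 0.0078). Without LTED-A replicate 2, the merged sample, the LTED-A value was 0.52, a fold under 1.5. SUM44PE held 499, 524 and 513 CPM, which overlapped LTED-B and lay above every SUM44F library. Its log2 difference from SUM44F was 0.37 and did not pass (SE 0.09, adjusted p = 0.00409). The change in MM134 exceeded that in SUM44 by 0.43 (SE 0.06, adjusted p = 1.38e-06), which is also a fold under 1.5. The 40 neighbours of EZR on chromosome 6 stood at a median of -0.65 on the log2 scale in SUM44 LTED-B and at medians of -0.06 to 0.19 in the other 5 comparisons. In SUM44 LTED-B, 18 of them were called, against 18.8% of all genes, and 1 of these rose. That share of all genes was not limited to a mean of at least 1 CPM, as the neighbours were.

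MSN, the moesin of the ERM family, fell in each MM134 LTED variant, and its log2 fold change was the lowest of the 7 genes tested in each of the 4. The parental libraries held 18.2, 16.4 and 17.2 CPM. LTED-A held 2.90, 2.71 and 2.96 CPM, LTED-B held 0.882, 0.803 and 0.597 CPM, LTED-D held 0.323, 1.35 and 0.859 CPM and LTED-E held 1.46, 1.42 and 1.54 CPM. The lowest parental library was well above the highest LTED library. LTED-D spread the most, from 10 to 48 counts, and its highest library, replicate 2, was the one that held lumican. The log2 fold changes were -2.60, -4.49, -4.31 and -3.54 (SE 0.19 to 0.23, adjusted p from 3.99e-10 to 1.56e-08), and LTED-D was at -4.77 without the libraries with lumican.

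The SUM44 values of MSN depended on SUM44F replicate 1. SUM44F held 20.5, 12.2 and 9.69 CPM, LTED-A held 5.41 and 5.69 CPM and LTED-B held 1.02, 1.19 and 1.23 CPM. All LTED samples lay below SUM44F, and LTED-B lay below LTED-A. LTED-B passed, with -3.60 (SE 0.30, adjusted p = 3.07e-05), and LTED-A did not, with -1.34 (SE 0.30, adjusted p = 0.00954). Without SUM44F replicate 1, LTED-A was at -0.97 and passed (adjusted p = 1.15e-04), LTED-B was at -3.24 (adjusted p = 1.78e-11), and the difference between the variants went from an adjusted p of 0.00124 to 5.90e-09 at a nearly equal size (2.26 on the log2 scale in both). LTED-A also passed without SUM44F replicate 3, at -1.54 (adjusted p = 3.65e-04). With all libraries, DESeq2 called both LTED-A (-1.31, adjusted p = 8.18e-07) and the difference between the variants (2.27, adjusted p = 1.06e-15). Fibroblasts express MSN, and the part of the fibroblast signal in the level of replicate 1 was not tested. SUM44PE held 3.80, 4.18 and 3.78 CPM, lower than SUM44F by -1.86 (SE 0.24, adjusted p = 2.60e-04) and by -1.48 without replicate 1 (adjusted p = 6.02e-08). That call was lost without any one of the SUM44PE libraries, at nearly equal differences of -1.82 to -1.91 (adjusted p = 0.00187 to 0.00263).

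As a share of the ERM level per kilobase, EZR made up 96.0% ± 0.0864 in MM134 parental cells and 95.9% to 98.4% in the LTED variants, and 89.9% to 95.6% in the 4 SUM44 groups. The MSN share went from 1.88% ± 0.0597 in MM134 parental cells to 0.152%, 0.0508%, 0.0389% and 0.102% in LTED-A, B, D and E. RDX, the remaining ERM gene, rose in the 4 MM134 variants (mean levels of 21.8 CPM in parental and 55.1, 50.7, 36.8 and 64.2 CPM in LTED-A, B, D and E, log2 fold changes of 1.33, 1.22, 0.77 and 1.57). In SUM44 it rose in LTED-B only (42.6 CPM in SUM44F, 41.3 in A and 79.4 in B). The summed ERM level was 232 CPM per kb in MM134 parental cells and 475, 379, 546 and 364 CPM per kb in the variants.

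**Figure D5:**
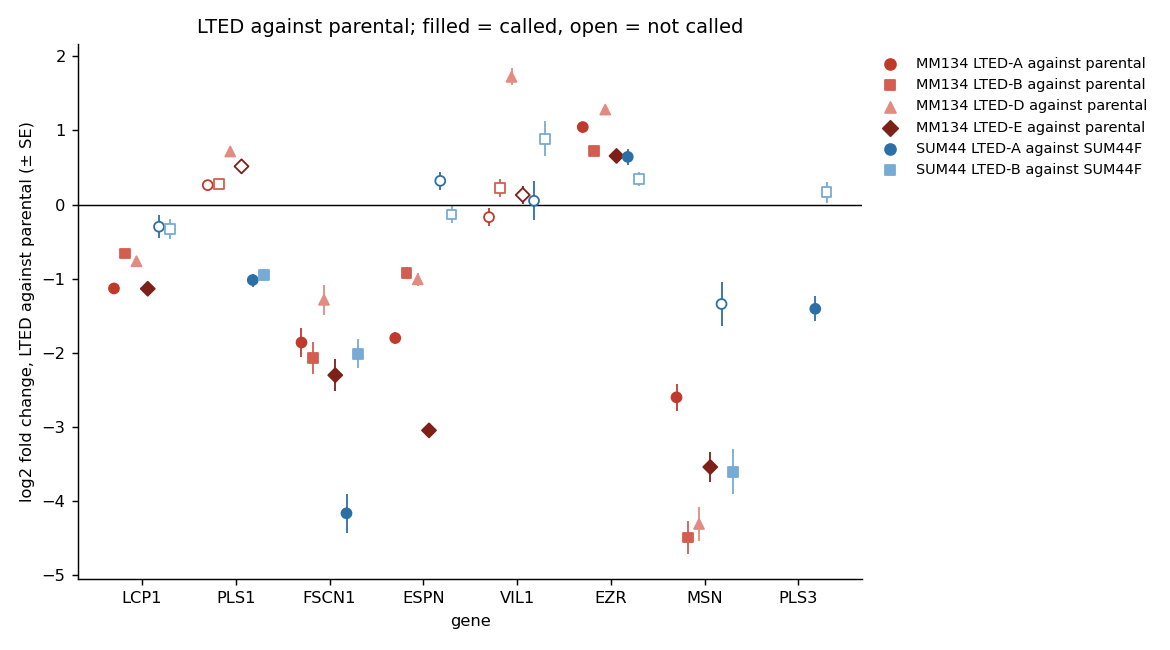
Log2 fold change of each LTED variant against its parental cells (± SE from the edgeR fit) for the 7 genes tested in MM134 and the 8 tested in SUM44, with filled symbols for called genes. MSN and FSCN1 lie below 0 in all 6 comparisons and EZR above 0 in all 6, PLS1 lies above 0 in MM134 and below 0 in SUM44, and PLS3 is drawn for SUM44 only.

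By counts, 5 of the 7 genes tested were called in MM134 LTED-A against 20.7% of all genes, 5 of 7 in LTED-B against 16.3%, 7 of 7 in LTED-D against 18.0%, and 5 of 7 in LTED-E against 19.4%. FSCN1, ESPN, LCP1 and MSN were the 4 that fell in each, and EZR rose in each. In SUM44, 4 of the 8 genes were called in LTED-A against 15.7% of all genes (EZR up, PLS3, PLS1 and FSCN1 down), and 3 of 8 in LTED-B against 18.8% (PLS1, FSCN1 and MSN, all down). Between SUM44 LTED-A and LTED-B, 2 of 8 were called against 9.04%, and between SUM44PE and SUM44F 3 of 8 against 6.04%. Without the 3 libraries that held lumican, these counts were 5, 5, 7 and 5 in MM134 and 5, 3, 3 and 3 in SUM44, where the added call was MSN each time. The members were picked with results of these data known, so the shares are descriptions.

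The hormone-deprived parental lines themselves differed in 4 of the 7 genes tested, against 38.3% of all genes. MM134 cells held more VIL1 (log2 difference 1.71, SE 0.19, adjusted p = 3.13e-09) and EZR (0.79, SE 0.05, adjusted p = 4.61e-14) and less FSCN1 (-2.24, SE 0.18, adjusted p = 3.37e-12) and PLS1 (-0.71, SE 0.05, adjusted p = 2.51e-13) than SUM44F. LCP1, ESPN and MSN differed by -0.04, -0.08 and 0.30 and did not pass (95% intervals -0.22 to 0.14, -0.27 to 0.10 and -0.14 to 0.74). Without the libraries with lumican, MSN was higher in MM134 by 0.65 (adjusted p = 6.90e-04) and LCP1 turned to 0.14 (adjusted p = 0.134). PLS3, at 0.0605 ± 0.0352 CPM in MM134 and 8.88 ± 1.28 CPM in SUM44F (SD, n = 3 each), was left out of this test.

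The change in LTED cells differed between the lines for 4 of the 7 genes tested, against 21.1% of all genes. Means over variants were compared, and the p-values do not measure the spread between variants. PLS1 and FSCN1 lay higher in MM134 than in SUM44, with differences of 1.42 and 1.2 between the mean log2 fold changes. LCP1 and ESPN lay lower, at -0.62 and -1.79. For FSCN1 the variants did not separate by line: SUM44 LTED-A was at -4.17, and SUM44 LTED-B (-2.01) lay within the MM134 values of -2.30 to -1.29. For MSN, SUM44 LTED-B (-3.60) likewise lay within the MM134 values of -4.49 to -2.60. The LCP1 difference fell under a fold of 1.5 without SUM44F replicate 2 (-0.56) or replicate 3 (-0.52). MSN missed the threshold, at -1.28 (SE 0.29, adjusted p = 0.00104), and passed it without the libraries with lumican, at -1.79 (adjusted p = 4.57e-09). It also passed without MM134 LTED-D replicate 1 or 2 (adjusted p = 1.10e-04 and 1.02e-04) and without SUM44F replicate 1 (-1.64, adjusted p = 9.01e-07), and in DESeq2 with all libraries (-1.31, adjusted p = 4.98e-06). VIL1 differed by 0.01 (SE 0.26, 95% interval -0.50 to 0.51).

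Ordered by mean level, the groups were not always separable. For PLS3 the order was MM134 LTED-A, B, D, E, then SUM44 LTED-B, SUM44F, SUM44 LTED-A, SUM44PE and MM134 parental cells, with overlapping libraries only between MM134 LTED-B and D and between SUM44 LTED-B and SUM44F. EZR had 1 such overlapping pair of neighbours (SUM44PE and SUM44 LTED-B), while VIL1 had 6 of 8 and FSCN1 5 of 8. Such pairs were not counted over all genes, so these counts describe the order only and show no trait of these genes. MSN was highest in MM134 parental cells and SUM44F, which overlapped, and lowest in MM134 LTED-B and LTED-D and SUM44 LTED-B, whose neighbouring ranges also overlapped.

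The rest of the actin machinery was followed in 7 lists of 98 genes, from each of which the genes with the largest mean rise and fall are named. Of the 95 tested in MM134, 36, 30, 31 and 38 were called in LTED-A, B, D and E, with 18, 15, 19 and 19 of them up. These are 37.9%, 31.6%, 32.6% and 40.0%, against 20.7%, 16.3%, 18.0% and 19.4% of all genes. Of the 94 tested in SUM44, 27 were called in LTED-A (9 up) and 32 in LTED-B (16 up), which are 28.7% and 34.0% against 15.7% and 18.8% of all genes. The counts of single lists below stand against the same shares of all genes. Those shares were not matched to the lists by level or gene type. The median log2 fold change of these genes was -0.05 to 0.06 in the 4 MM134 variants and -0.02 and -0.03 in the SUM44 variants, beside -0.03 to 0.02 and -0.06 and -0.09 over all genes.

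Among the 12 ERM relatives, partners and kinases, 4, 4, 2 and 3 rose and 3 fell in each of the MM134 variants, and 1 and 2 rose and 6 and 4 fell in SUM44 LTED-A and B. CD44, the hyaluronan receptor that ERM proteins bind, fell in MM134 from 14.3 CPM in parental cells to 0.200, 2.20, 0.332 and 0.367 CPM, and in SUM44 from 293 CPM in SUM44F to 117 and 124 CPM. SDC2, the proteoglycan syndecan 2, fell in SUM44 from 86.6 CPM to 2.48 and 0.442 CPM. NHERF1, a scaffold that binds ezrin, rose there from 54.8 CPM to 182 and 233 CPM (adjusted p = 1.17e-08 and 4.92e-10).

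Of the 7 genes of the gelsolin and villin superfamily other than VIL1, 4 rose in each MM134 variant and 1, 1, 0 and 1 fell, and in SUM44 LTED-A and B 0 and 1 rose and 2 and 3 fell. SVIL, supervillin, went from 56.2 CPM to 177, 162, 145 and 201 CPM in MM134 LTED-A, B, D and E. In SUM44 its mean went the other way, from 224 CPM in SUM44F to 121 and 152 CPM in LTED-A and B. VILL, a villin-like gene, fell in MM134 LTED-A, B and E and rose in D. AVIL, advillin, fell in both SUM44 variants (-1.06 and -1.05 on the log2 scale). Of 13 other bundlers and cross-linkers tested, 4, 4, 2 and 4 fell in MM134 and 1 rose, in LTED-D, and in SUM44 3 and 5 fell and none rose at this threshold. Their median log2 fold changes in MM134 were -0.36, -0.26, -0.41 and -0.44. SYNPO, synaptopodin, fell in MM134 from 19.2 CPM to 2.81, 3.63, 6.02 and 5.02 CPM. MARCKS, a substrate of protein kinase C that cross-links actin, fell in SUM44 from 66.9 CPM to 43.5 and 8.71 CPM. In MM134 its mean went from 561 CPM to 469, 312 and 408 CPM in LTED-A, B and D, and to 736 CPM in LTED-E.

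Of 14 microvillus and filopodium genes tested, 4, 3, 4 and 5 rose and 2, 1, 1 and 2 fell in MM134, and 2 and 3 rose and 0 and 1 fell in SUM44. EPS8L3, a relative of the capping protein EPS8, had at most 1 count in a parental MM134 library and 0.397, 0.207, 1.10 and 1.55 CPM in LTED-A, B, D and E, and MYO1A, the brush-border myosin, fell in A, B and E (log2 fold changes of -1.39, -1.77 and -1.15). Among 25 nucleators, 4, 3, 5 and 5 rose and 4, 3, 3 and 3 fell in MM134. WASF3, a WAVE protein that activates actin branching, went from 0.187 CPM in MM134 parental cells to 14.4, 13.8, 17.7 and 17.9 CPM, and the formin DAAM2 fell in A, D and E (-0.70, -1.75 and -2.19 on the log2 scale). In SUM44, 1 and 3 of 24 rose and 2 in each variant fell.

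Among the 19 genes of actin monomers and turnover, 2, 1, 3 and 2 rose and 2, 1, 1 and 4 fell in MM134, and 3 and 5 rose and 3 and 1 fell in SUM44. TMSB4X, thymosin beta 4, which holds actin monomers in reserve and has pseudogenes that may share its reads, fell from 330 CPM in MM134 parental cells to 113, 2.81, 97.1 and 25.9 CPM. TMOD1, a pointed-end capper, rose in A, D and E (1.13, 2.04 and 1.5 on the log2 scale), and CAP2, a cyclase-associated protein, rose in SUM44 from 6.87 CPM to 26.5 and 29.2 CPM. Of the 5 tropomyosin and caldesmon genes, 2 fell in each MM134 variant, with CALD1 going from 4.49 CPM to 0.437 to 0.721 CPM. In SUM44 2 rose in each variant, with TPM4 at 0.92 and 0.93 on the log2 scale, and 2 fell in LTED-A. The mean of TPM4 went the other way in MM134, from 176 CPM to 99.8, 110, 93.4 and 108 CPM in LTED-A, B, D and E.

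Of 7 markers of a mesenchymal state tested in MM134 (VIM, CDH2, FN1, ZEB1, ZEB2, TWIST1 and SNAI1), 5, 4, 2 and 5 were called in LTED-A, B, D and E, all of them down, against 20.7%, 16.3%, 18.0% and 19.4% of all genes called in either direction. The summed level of the 8 listed, with SNAI2, was 376 to 380 CPM in parental cells and 219 to 227, 218 to 225, 260 to 266 and 123 to 127 CPM in the variants. The sums were 117 CPM in SUM44F replicate 1, the library with the fibroblast markers, and 74.1 and 71.9 CPM in the other SUM44F libraries, 33.8 to 35.4 CPM in SUM44 LTED-A and 93.0 to 96.6 CPM in LTED-B, which lay above SUM44F without replicate 1. In SUM44 LTED-A, 1 of the 6 tested fell, against 15.7% of all genes called in either direction. In SUM44 LTED-B, 0 of the 6 were called, against 18.8%. The part of these markers in the changes of FSCN1 and MSN was not tested.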

How the data were processed

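RNA-Seq was measured in 27 libraries of 9 groups, named from the labels. The authors mapped reads to hg38 (Ensembl 82) and deposited estimated counts per gene from Salmon 0.6.0, from a strand-specific total RNA kit; the strand setting of the counting was not given in the sources used here. The estimated counts were rounded and tested with edgeR 4.0.16 (R 4.3.3), using TMM factors, filterByExpr and robust quasi-likelihood F-tests, two-sided, with Benjamini-Hochberg adjustment over all genes tested. MM134 and SUM44 were fitted separately, and comparisons across lines used all groups. A gene was called at a fold change over 1.5 and an adjusted p under 0.001. Levels are TMM-normalised CPM from the fit of both lines. The script was tested on simulated data. The members and the gene lists were chosen with earlier results of these data known. All 8 members were named, and from each list the gene with the largest mean rise and fall among those called in at least 3 of the 4 MM134 variants or in both SUM44 variants. Likeness was Pearson's r of log2(CPM + 1) group means. Symbols and positions came from GENCODE release 44 and promoter windows from RefSeq (GRCh38.p14). Alternatives were RLE size factors, DESeq2 1.42.0, no filter, thinning, a replicate block, other thresholds and leaving out each library.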

Additional observations from a re-analysis of the deposited data

Results flagged for a closer look

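The LTED change differed between the cell lines for 4 of the 7 members tested, against 21.1% of all genes. The edgeR test took the MM134 mean over 4 variants minus the SUM44 mean over 2 (log2 fold changes). PLS1 stood at 0.44 in MM134 and -0.98 in SUM44, a difference of 1.42. ESPN stood at -1.69 and 0.09, a difference of -1.79. FSCN1 stood at -1.88 and -3.09, a difference of 1.2, and fell in both lines. Its value in SUM44 LTED-B (-2.01) lay within those of the MM134 variants (-2.30 to -1.29). LCP1 stood at -0.92 and -0.31, a difference of -0.62.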

How the results depend on the processing

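The replicate numbers did not pair the samples: the correlation of same-numbered deviations went down to -0.353 in MM134 and was over 0.1 in 7 of 30 pairs, and the replicate block changed no count of called members (5, 5, 7 and 5 in the MM134 variants). Of 1369 alternative values for 82 member results, 1292 kept their direction and side of the threshold, 28 passed it newly, 20 no longer passed and 29 changed sign, none of the last a called result. The 82 include the PLS3 difference among the MM134 variants, which is a description. Leaving out the 3 libraries with lumican was chosen after seeing the data. With a fold change over 2, 2 members were called in MM134 LTED-B and 2 between the parental lines. With an adjusted p under 0.05, 4 were called between SUM44 LTED-A and LTED-B, and leaving out 1 library there gave 1 to 2. The cause was not tested for these or the following. VIL1 in SUM44 LTED-A turned to -0.12 with thinning and -0.13 without the lumican libraries (-0.22 to 0.29 with 1 library left out), and in MM134 LTED-E it was -0.0013 to 0.22 with 1 left out. Between the SUM44 variants LCP1 turned to -0.042 with the block (-0.073 to 0.13 with 1 library left out), and PLS1 to 0.0076 with thinning (-0.18 to 0.048). Between the parental lines LCP1 turned to 0.14 without the lumican libraries (-0.18 to 0.16 with 1 left out) and ESPN ranged from -0.18 to 0.0034. The VIL1 difference between lines was -0.020 with no filter, -0.050 with RLE, -0.052 with DESeq2, -0.036 with the block, -0.066 with the near-identical libraries kept separate and -0.25 to 0.18 with 1 library left out. Depth limits PLS3 in MM134 parental cells (6 counts).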

Other observations

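Likeness to a member was Pearson's r of the log2 level over the 9 group means, among 22932 genes. The highest were the pseudogene USP32P3 and RMDN1 for PLS3 (r = 0.98 each) and ATP9A and BCL2 for ESPN (0.98 and 0.97). For FSCN1 they were ANKRD10-IT1, a Metazoa_SRP RNA and ANKRD10 (0.99, 0.98 and 0.98), and for EZR ADCY6-DT, SNORD70 and TRIM14 (0.98, 0.97 and 0.97). For MSN they were FLT1, MPP3 and FBN2 (0.96, 0.95 and 0.95). Pearson's r leaves out the size of a change. The log2(CPM + 1) level of RMDN1 ran only from 5.71 to 6.34 and that of USP32P3 from 0.25 to 0.90. The Metazoa_SRP RNA (0.11 to 0.32) and SNORD70 (0.090 to 0.47) stayed low throughout. These r values are descriptions over 9 points that share libraries. The 40 genes nearest to LCP1 stood at a median of -0.35 (log2) in SUM44 LTED-A, where 17 were called, against 15.7% of all genes, and 2 of these rose. That share was not limited to a mean of at least 1 CPM, as the neighbours were. Those nearest to FSCN1 had a median of 0.26 in MM134 LTED-D.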
